A study of Mus musculus with 4 samples.

Results

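The genes described here are 10 genes of polyamine synthesis and breakdown, read by name from the per-gene values of 4 RNA libraries of mouse tibialis anterior, a shin muscle made mostly of fast fibres. They are Odc1, Amd1, Amd2, Srm and Sms of synthesis, Azin1 and Oaz1 of its control, and Smox, Sat1 and Paox of breakdown, out of 32868 gene names in the files. Smox was chosen by its measured fall in the mutant, and the other 9 genes by their place in its pathway. Of the 10, 7 had values above 0 and 3 (Amd1, Amd2 and Oaz1) were listed at 0 in all 4 libraries.

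The mice were C57BL/6 at postnatal day 21. The Nf1-KO group (genotype Nf1flox/flox/Myf5+) had 2 floxed alleles of Nf1, the gene of neurofibromin, which switches off the GTPase Ras. The Het group (Nf1flox/+/Myf5+) had 1 floxed allele and served as the control, so all mice carried Myf5+ and a floxed allele. In this kind of cross Myf5+ usually stands for a Cre driver active in muscle precursors, and cells of other lineages in the muscle would keep Nf1. Each group had 2 libraries. The labels do not say whether they came from separate animals, so p-values measure only the spread between these libraries, which may be technical.

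Polyamines are small, positively charged molecules that bind nucleic acids and are needed for cell growth and translation. Ornithine decarboxylase makes putrescine, spermidine synthase turns it into spermidine, and spermine synthase turns that into spermine, with aminopropyl groups taken from decarboxylated S-adenosylmethionine. Spermine oxidase, the product of Smox, turns spermine straight back into spermidine and releases hydrogen peroxide and an aldehyde. The other way back runs through acetylation by the Sat1 product and oxidation by the Paox product. In skeletal muscle, Smox is known as a gene whose expression falls in several conditions of muscle atrophy.

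Start regions of some members that changed are shown because Smox, Odc1 and Sms were all lower in Nf1-KO, so that their promoters can be read side by side. RefSeq promoter windows (GRCm38.p6, 250 bases before to 50 after a transcript's start) were found for 8 of the 10 members, and Srm and Azin1 had none in the table used. The windows of Smox, Odc1, both starts of Sms and, for a gene that rose, Sat1 follow, 5′ to 3′ on the gene's strand. Capitals mark matches on either strand to CACGTG (an E-box, the site of Myc and Max), GGGCGG (a GC box, the site of Sp1) and CCGGAAG (an ETS site).
Smox chr2:131491612-131491911 (plus strand): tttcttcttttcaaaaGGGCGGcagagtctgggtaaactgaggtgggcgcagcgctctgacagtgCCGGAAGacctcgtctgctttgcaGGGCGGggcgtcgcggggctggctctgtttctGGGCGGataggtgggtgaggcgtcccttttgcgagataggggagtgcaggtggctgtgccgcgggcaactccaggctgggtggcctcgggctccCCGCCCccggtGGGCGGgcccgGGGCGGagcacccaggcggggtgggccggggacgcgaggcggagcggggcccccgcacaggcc
Odc1 chr12:17544623-17544922 (plus strand): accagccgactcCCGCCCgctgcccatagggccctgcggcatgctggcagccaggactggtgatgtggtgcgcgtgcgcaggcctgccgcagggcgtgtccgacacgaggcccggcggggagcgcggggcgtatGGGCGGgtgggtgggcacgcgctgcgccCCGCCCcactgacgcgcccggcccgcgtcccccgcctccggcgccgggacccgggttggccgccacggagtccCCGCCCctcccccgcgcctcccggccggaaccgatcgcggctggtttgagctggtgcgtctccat
Sms chrX:157492238-157492537 (minus strand): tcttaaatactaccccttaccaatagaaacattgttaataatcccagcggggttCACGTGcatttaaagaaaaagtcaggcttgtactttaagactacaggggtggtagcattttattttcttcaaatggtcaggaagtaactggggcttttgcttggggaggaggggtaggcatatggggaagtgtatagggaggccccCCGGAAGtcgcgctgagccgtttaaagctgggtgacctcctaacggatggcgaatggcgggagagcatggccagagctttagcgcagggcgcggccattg
Sms chrX:157491319-157491618 (minus strand): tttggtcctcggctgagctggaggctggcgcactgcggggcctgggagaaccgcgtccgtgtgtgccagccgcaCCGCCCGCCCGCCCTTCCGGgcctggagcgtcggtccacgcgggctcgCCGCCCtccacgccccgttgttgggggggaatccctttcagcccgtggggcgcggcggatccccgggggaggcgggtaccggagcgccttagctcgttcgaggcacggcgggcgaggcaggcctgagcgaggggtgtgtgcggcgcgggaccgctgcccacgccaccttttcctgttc
Sat1 chrX:155216400-155216699 (minus strand): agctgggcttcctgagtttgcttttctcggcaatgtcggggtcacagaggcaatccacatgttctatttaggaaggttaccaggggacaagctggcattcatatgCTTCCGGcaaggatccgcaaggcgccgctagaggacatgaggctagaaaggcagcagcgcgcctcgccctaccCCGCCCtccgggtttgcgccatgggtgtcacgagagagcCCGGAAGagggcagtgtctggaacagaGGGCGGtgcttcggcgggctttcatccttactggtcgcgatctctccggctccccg
The Smox window held 6 GC boxes and 1 ETS site, and its GC content was 71% against a median of 52.7% over all windows. GC content was 78% for Odc1, 60.3% for Sat1, and 74.3% for the Sms window with the lower coordinates and 50.3% for its other window. The Odc1 window held 4 GC boxes and neither of the other motifs. The Sms window with the lower coordinates held 4 GC boxes, of which 3 overlap each other, and 1 ETS site. Its other window held 1 ETS site and 1 E-box. The Sat1 window held 2 GC boxes and 2 ETS sites. Both windows of Paox, which was also called higher, are left out above. Each held 3 GC boxes and neither of the other motifs, at a GC content of 63.3% and 64%. Of 32851 windows in the table, 35.7% held GGGCGG, 8.86% CCGGAAG and 7.15% CACGTG. These matches describe the letters of the windows only.

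The libraries held an estimated 36600000 to 58100000 reads, with the groups' ranges overlapping. Values are RPKM, reads divided by gene length and library depth, so levels of different genes can be compared. Myofibre markers (Acta1, Ckm, Ttn, Tnnt3 and 3 myosin heavy chains) summed to 43670 and 43914 RPKM in Het and to 36885 and 36433 RPKM in Nf1-KO. Of these 7 markers 5 were called lower and 2 higher, with a median log2 fold change of -0.29. The myosin heavy chains were divided, with Myh1 at 0.52 and Myh2 at 0.77, the 2 higher markers, and Myh4 at -1.08. The part of these markers in the falls of the members was not tested. Nf1 itself (chromosome 11, 79339693 to 79581612, GRCm38) was 1.09 and 1.01 RPKM in Het and 0.89 and 0.85 RPKM in Nf1-KO. The log2 fold change of Nf1 was -0.18 ± 0.057 (SE; limma adjusted p 0.041). That call was lost when any 1 library was left out (limma adjusted p 0.057 to 0.180). The authors' deposited table gave Nf1 -0.38, with an adjusted p of 0.0026. Fold changes are of log2(RPKM + 1) after scaling between libraries, so those of low genes are understated, and a gene is called at a limma adjusted p under 0.05 over 10690 tested genes. Of those genes 50.3% were called, 24.9% higher and 25.4% lower in Nf1-KO. With values as deposited, the higher genes made up 66.6% of the calls against 49.5% with scaling.

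Among the 9 members other than Smox, 6 were high enough to test, and 5 of these were called: Odc1, Sms and Azin1 fell and Sat1 and Paox rose in Nf1-KO, while Srm was not called. Each of the 6 was above the filter of 0.5 RPKM in every library. The share of all tested genes called in either direction, 50.3%, is the background for this count. The median log2 fold change of the 6 was -0.28, against 0.00051 over all tested genes. In each of these 6 members both Nf1-KO libraries lay outside the range of the Het libraries. They did so in 76.3% of the tested genes (38.2% with Nf1-KO above and 38.1% with Nf1-KO below). Smox was chosen for its fall and is left out of this count. In a whole muscle, fewer cells of a type and less RNA per cell cannot be told apart.

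**Figure D1:**
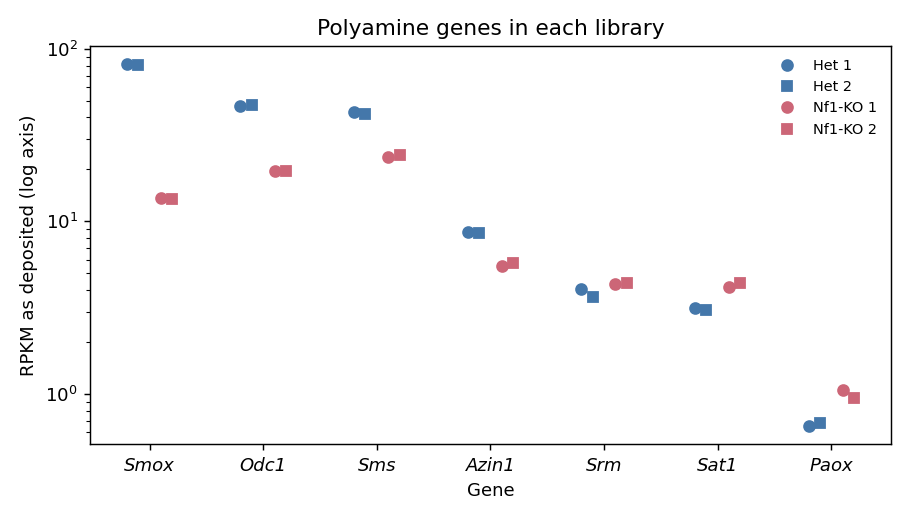
RPKM as deposited (log axis) of the 7 polyamine genes above 0 in each of the 4 libraries, with Het in blue and Nf1-KO in red, circles for replicate 1 and squares for replicate 2. Smox, Odc1, Sms and Azin1 lie lower in both Nf1-KO libraries, from 81.6 and 80.8 to 13.7 and 13.4 RPKM for Smox, while Srm, Sat1 and Paox lie higher.

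Odc1 encodes ornithine decarboxylase, the enzyme that commits ornithine to polyamines (chromosome 12, 17544794 to 17551505). It was 46.8 and 46.9 RPKM in Het and 19.5 RPKM in each Nf1-KO library. The groups were far apart and their replicates nearly identical. The Het level was 2.56-fold the Nf1-KO level after scaling. This was a log2 fold change of -1.31 ± 0.025 (SE; limma adjusted p 6.1e-07). Parts of the Odc1 transcript, 49.8% of its bases, are at least 97% identical to another annotated gene, Gm17709, so its value is uncertain as far as reads were shared.

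Sms encodes spermine synthase, which makes the substrate of spermine oxidase (chromosome X, 157443855 to 157492287). It held 43.3 and 41.9 RPKM in Het and 23.6 and 24.2 RPKM in Nf1-KO. The scaled Het level was 1.90-fold that of Nf1-KO, a log2 fold change of -0.90 ± 0.029 (SE; limma adjusted p 3.6e-06). Its transcript shares 29.6% of its bases with the pseudogene Sms-ps. Srm encodes spermidine synthase, the enzyme of the preceding step (chromosome 4, 148591503 to 148594993). Its values were 4.04 and 3.62 RPKM in Het and 4.32 and 4.37 RPKM in Nf1-KO. Srm was not called (log2 fold change 0.07 ± 0.057, SE; limma adjusted p 0.334). The Het libraries lay apart from each other by about as much as from Nf1-KO. Without Het replicate 2 the log2 fold change was 0.0050, and without Het replicate 1 it was 0.13.

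Azin1 encodes antizyme inhibitor, a relative of ornithine decarboxylase that has no decarboxylase activity and protects the enzyme by binding antizyme (chromosome 15, 38487427 to 38519266). It fell from 8.66 and 8.56 RPKM in Het to 5.49 and 5.71 RPKM in Nf1-KO. This was a log2 fold change of -0.62 ± 0.040 (SE; limma adjusted p 6.2e-05). An exon of the opposite-strand gene Gm49077 overlaps it, and the strand setting of the counting is not given in the sources used here. Odc1 and Azin1 moved the same way, though not equally. The ratio of Odc1 to Azin1 within a library was 5.40 and 5.48 in Het and 3.56 and 3.42 in Nf1-KO, a comparison on which scaling between libraries has no effect.

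Smox (chromosome 2, 131491496 to 131525922) is described without a test, since it was chosen for this difference. Its values were 81.6 and 80.8 RPKM in Het against 13.7 and 13.4 RPKM in Nf1-KO, with the groups far apart and the replicates close. It was the most abundant of the 7 measured members in Het and had rank 3 in Nf1-KO, after Sms and Odc1. Among all tested genes its mean level lay at the 95.7th percentile in Het and at the 77.3rd percentile in Nf1-KO. The scaled Het level was 6.40-fold that of Nf1-KO. No other annotated transcript matched it over at least 100 bases at 97% identity, so it was free of the sequence sharing seen for Odc1, Sms and Paox.

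The acetylation route was measured through Sat1 and Paox. Sat1 encodes spermidine/spermine acetyltransferase, which marks polyamines for export or oxidation (chromosome X, 155213132 to 155216449). It rose from 3.15 and 3.08 RPKM in Het to 4.19 and 4.40 RPKM in Nf1-KO. This was a log2 fold change of 0.29 ± 0.049 (SE; limma adjusted p 0.0035). Paox encodes the peroxisomal oxidase of acetylated polyamines (chromosome 7, 140115799 to 140137224). Its transcript shares 29.2% of its bases, at 99.9% identity, with Gm19680. It was the lowest of the measured members, at 0.65 and 0.68 RPKM in Het and 1.05 and 0.95 RPKM in Nf1-KO. Paox rose by 0.22 ± 0.059 (SE) on the log2 scale (limma adjusted p 0.021). The Paox call was lost without Het replicate 1 (log2 fold change 0.21, limma adjusted p 0.073), without Nf1-KO replicate 1 (0.19 and 0.109) and with no filter on low values (0.22 and 0.055).

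Few reads stood behind Sat1 and Paox. Their mean normalized counts were 288 and 74.2 in the authors' deposited table, against 5222 for Smox. In the authors' deposited table the log2 fold change of Sat1 was 0.36 with an adjusted p of 0.090, and that of Paox 0.47 with an adjusted p of 0.305. That table called 0 of the measured members higher, and 1 of them, Sat1, had an unadjusted p under 0.05 there (0.032). It called Odc1, Sms and Azin1 lower, with log2 fold changes of -1.37, -0.94 and -0.73, where it called 31.6% of its 13985 genes, 16.6% lower and 15% higher. Counting error alone, computed from the mean counts of the authors' deposited table, gave a standard error of 0.17 for a Paox log2 ratio of 0.49 without pseudocount. For Sat1 the ratio was 0.37 with a counting error of 0.086. Exons of Paox also overlap those of Echs1, an enzyme of fatty acid oxidation on the opposite strand. Echs1 went from 20.8 and 21.4 RPKM in Het to 49.6 RPKM in each Nf1-KO library, and the part of its reads in the Paox value was not tested. Sat1 is expressed in many cell types, macrophages included, and the summed macrophage markers were 12.6 to 13.0 RPKM in Het and 34.3 RPKM in Nf1-KO. Of these 7 markers 5 were tested and 5 were called higher, as were 24.9% of all tested genes, and Adgre1 was listed at 0 in every library. Lyz2 held most of the sum, at 7.47 and 7.38 RPKM in Het and 24.35 and 24.62 RPKM in Nf1-KO. The authors' deposited table called Cd68, Csf1r, Lyz2 and C1qb higher, but not C1qa or Ptprc (adjusted p 0.098 and 0.216). The part of these markers in the Sat1 value was not tested.

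**Figure D2:**
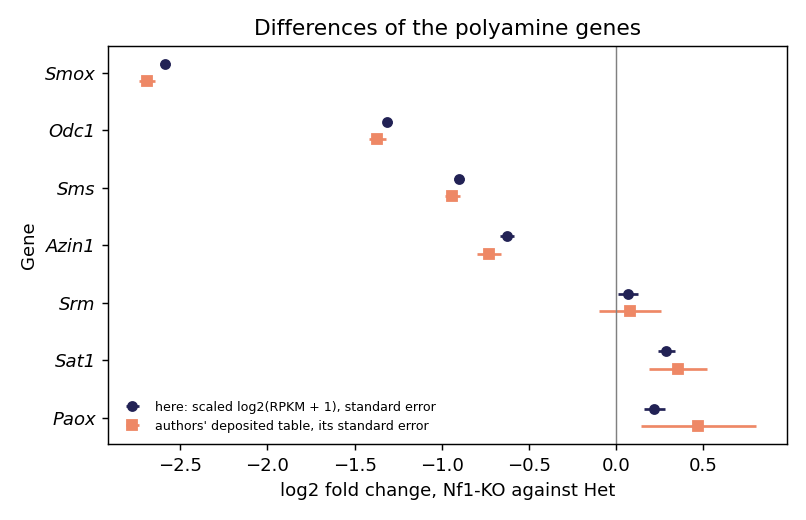
Log2 fold change of Nf1-KO against Het for the 7 measured members, with circles for the fit on scaled log2(RPKM + 1) and squares for the authors' deposited table, bars being standard errors. The values for Srm, Sat1 and Paox lie between 0.07 and 0.47 with the widest bars in the authors' deposited table, while those of Smox, Odc1, Sms and Azin1 lie at -0.62 or lower in each source.

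The remaining 3 members could not be compared. Amd1 and Amd2 encode S-adenosylmethionine decarboxylase, which supplies the aminopropyl donor of both synthases, and Oaz1 encodes antizyme, which binds ornithine decarboxylase and sends it to the proteasome. They lie on chromosome 10, Amd1 from 40287458 to 40302186, Amd2 from 35708675 to 35711892 and Oaz1 from 80826656 to 80829290. A listed 0 may be a failed estimate, since Oaz1 is a gene that nearly every cell uses. The Amd1 transcript shares 99.8% of its bases with Amd2, at 99.6% identity, and 27.4% of the Oaz1 transcript matches its pseudogene Oaz1-ps, which was also listed at 0. How the counting treated reads that match several places is not given in the sources used here, and its part in these zeros was not tested.

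The make-up of the measured pathway transcripts differed between the groups. The 7 members above 0 summed to 188 and 186 RPKM in Het and to 71.9 and 72.5 RPKM in Nf1-KO. Smox made up 43.4% and 43.6% of that sum in Het and 19.0% and 18.5% in Nf1-KO. Because Smox was chosen for its fall, these shares are descriptions. Smox is also part of the sum, so its fall by itself raises the shares of the other members. Without Smox the members summed to 107 and 105 RPKM in Het and to 58.2 and 59.1 RPKM in Nf1-KO. Of the sum with Smox, Sms made up 23.0% and 22.6% in Het and 32.9% and 33.3% in Nf1-KO, although its own level fell. The share of Odc1 was between 24.9% and 27.2% in all libraries. The share of Srm was 2.15% and 1.95% in Het and 6.01% and 6.02% in Nf1-KO, though Srm itself was not called.

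**Figure D3:**
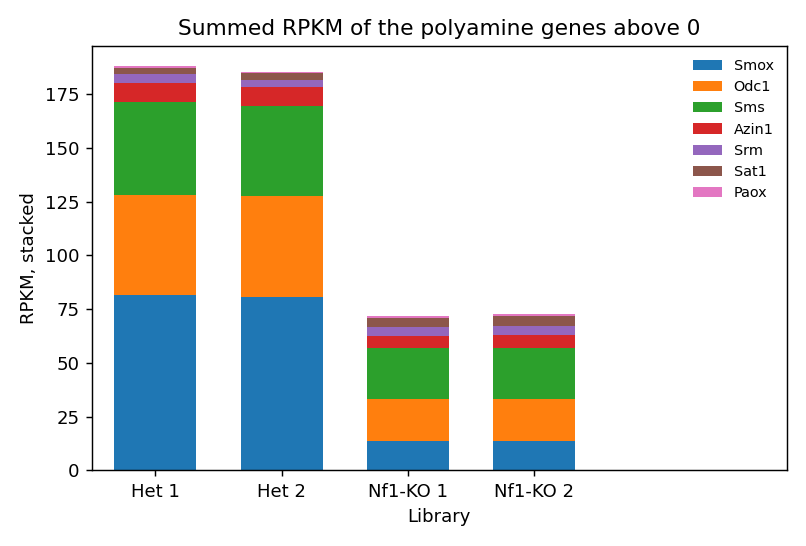
Stacked RPKM of the 7 members above 0 in each library, from 188 and 186 in Het to 71.9 and 72.5 in Nf1-KO. The blue Smox segment shrinks most, from 43.4% and 43.6% of the bar to 19.0% and 18.5%.

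Ratios taken within a library set enzymes of opposite or successive steps against each other. Smox over Sms, the spermine-consuming against the spermine-making gene, was 1.89 and 1.93 in Het and 0.580 and 0.555 in Nf1-KO. Smox over Paox was 126 and 119 in Het and 13.0 and 14.1 in Nf1-KO. Smox was thus the more abundant oxidase gene in every library. Sms over Srm was 10.7 and 11.6 in Het and 5.47 and 5.53 in Nf1-KO. Odc1 over Sms changed less, from 1.08 and 1.12 to 0.827 and 0.808. In order of mean level, Odc1 and Sms followed Smox in Het with ranges that did not overlap, and Azin1, Srm, Sat1 and Paox came after them. In Nf1-KO the order was Sms, Odc1, Smox, Azin1, Srm, Sat1 and Paox, and in that group the ranges of Srm (4.32 to 4.37 RPKM) and Sat1 (4.19 to 4.40 RPKM) overlapped.

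The genes whose pattern over the 4 libraries was most like that of Smox, among genes of at least 5 RPKM, were Irf5, Cbr2, a pair of rows named by a sequence identifier, and Mss51. Likeness was the root mean square difference of centred log2 values, which was 0.048 for Irf5, 0.052 for Cbr2 and 0.23 for Mss51. With 4 libraries in 2 groups this measure mostly compares the size of the difference between the groups. Irf5 held 10.6 and 10.8 RPKM in Het and 1.03 and 1.16 RPKM in Nf1-KO, below the level of Smox in every library.

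Genes around the pathway were taken from 6 lists with 62 genes, of which 43 were tested. Of these, 19 were called higher (44.2%, against 24.9% of all tested genes) and 14 lower (32.6%, against 25.4%), and 10 were not called. Their median log2 fold change was 0.05. With values as deposited, 21 were called higher, with Ahcyl2 and Slc18b1 added, and 9 lower, since Ahcy, Apip, Enoph1, Eif5a and Dohh were no longer called. Of the 47 list genes in the authors' deposited table, 18 were called higher and 10 lower there. That table called 15% of all its genes higher and 16.6% lower. The 40 genes above the filter in every library held 18 of the higher and 13 of the lower calls.

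Of 7 further antizymes, inhibitors and catabolic enzymes, Oaz2 and Sat2 were the 2 tested. Oaz2, another antizyme, exceeded Odc1 in level in all 4 libraries. It rose from 76.0 and 76.6 RPKM in Het to 92.5 and 92.3 RPKM in Nf1-KO, a log2 fold change of 0.18 ± 0.021 (SE; limma adjusted p 7.1e-04). Sat2 was not called (-0.05), and Azin2, Oaz3, Satl1, Aoc1 and Agmat had values at or below 0.10 RPKM in every library.

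Among 10 genes of arginine and ornithine supply, 5 were tested, 3 were called higher and 0 lower by limma, where 24.9% and 25.4% of all tested genes were. At an unadjusted p under 0.05, 1 was lower, Slc25a15 (0.037), and the authors' deposited table called 0 of them lower. Oat encodes ornithine aminotransferase, which links ornithine to glutamate and proline. It rose from 67.1 and 65.3 RPKM in Het to 119 RPKM in each Nf1-KO library, a log2 fold change of 0.74 ± 0.022 (SE; limma adjusted p 3.0e-06). The cationic amino acid transporter gene Slc7a2 and the argininosuccinate lyase gene Asl were the other genes called, at 0.62 and 0.25, and Asl was not called in the authors' deposited table (adjusted p 0.262). Exons of Slc7a2 overlap those of Gm26584 on the opposite strand. The arginase genes Arg1 and Arg2 stayed at or below 0.06 RPKM.

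Methionine and S-adenosylmethionine genes were divided, with 4 higher (28.6%, against 24.9% of all tested genes) and 8 lower (57.1%, against 25.4%) of 14 tested. Gnmt encodes glycine N-methyltransferase, which consumes S-adenosylmethionine. It was 0.72 and 0.37 RPKM in Het and 6.72 and 6.88 RPKM in Nf1-KO. Gnmt is 1 of the 4 higher genes and passed the filter only through Nf1-KO, where it was high, so its log2 fold change of 2.29 is a description. Got1, the cytosolic aspartate aminotransferase gene, was the most abundant of the list and rose from 213 RPKM in each Het library to 399.9 and 399 RPKM in Nf1-KO. Mtr, the methionine synthase gene, fell most on the log2(RPKM + 1) scale, from 3.29 and 3.36 to 1.74 and 1.69 RPKM, a log2 fold change of -0.74. Mtap, Adi1, Mri1, Enoph1 and Apip act in salvage of the methylthioadenosine left over by both synthases. They were singled out after their values were seen and so are only described. This selection leaves out Got1 and the other genes of the list that were called higher. Each of the 5 was called lower, as were 25.4% of all tested genes. Their log2 fold changes were -0.52 for Mtap, -0.46 for Adi1, -0.36 for Mri1, -0.31 for Enoph1 and -0.17 for Apip. With values as deposited, Enoph1 and Apip stayed lower but were not called, nor were they in the authors' deposited table (adjusted p 0.052 and 0.224).

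Polyamine transport genes gave 1 higher (12.5%, against 24.9% of all tested genes) and 4 lower (50%, against 25.4%) of 8 tested. Atp13a5, a P5B-type ATPase related to the lysosomal polyamine transporter Atp13a2, was 1.05 and 1.01 RPKM in Het and 0.13 and 0.16 RPKM in Nf1-KO. It is 1 of the 4 lower genes and passed the filter only through Het, where it was high, so its log2 fold change of -0.86 is a description. Atp13a2 and Atp13a3 were not called, at 0.0049 and -0.09. Gpc1, a heparan sulphate proteoglycan gene linked to polyamine uptake, fell from 102 and 99.5 to 78.3 and 78.1 RPKM, and exons of the opposite-strand gene Ankmy1 overlap it. Slc3a2 was the gene that rose, by 0.24 on the log2 scale.

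Spermidine is also the donor of hypusine, an amino acid made on the translation factor eIF5A by the products of Dhps and Dohh. Eif5a differed little, from 99.95 and 99.4 RPKM in Het to 97.6 and 96.7 RPKM in Nf1-KO. It was called lower at a log2 fold change of -0.13 (limma adjusted p 0.0025), and Dohh at -0.16 (0.049), but neither with values as deposited. The authors' deposited table called Eif5a lower (-0.14, adjusted p 5.2e-05) but not Dohh (adjusted p 0.061). Dhps was not called, and its sign turned from -0.02 to 0.07 without scaling.

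The last list held genes that dispose of hydrogen peroxide and aldehydes, the products of spermine oxidation, though most of them serve many other reactions. Of 12 genes 11 were tested, and 10 rose (90.9%, against 24.9% of all tested genes), 0 fell (against 25.4%) and 1 was not called in limma. At an unadjusted p under 0.05, 0 were lower (Aldh3a2 at 0.209), and the authors' deposited table called 0 lower. Aldh2, the mitochondrial aldehyde dehydrogenase gene, rose most on the log2(RPKM + 1) scale, from 26.0 and 26.8 RPKM in Het to 63.1 and 62.6 RPKM in Nf1-KO, a log2 fold change of 1.13 ± 0.027 (SE). Without a pseudocount Aldh9a1, another aldehyde dehydrogenase gene, came first, with a log2 ratio of 1.19 against 1.16 for Aldh2. On the log2(RPKM + 1) scale Aldh9a1 stood at 0.89 and Aldh7a1 at 0.54. The log2 fold changes were 0.37 for catalase (Cat), 0.40 for Prdx2, 0.22 for Prdx3, 0.15 for Prdx5, 0.14 for Prdx1 and 0.16 for Aldh1a1. Exons of Aldh2, Aldh7a1, Prdx2 and Prdx5 overlap genes on the opposite strand. Markers of macrophages, fibroblasts and Schwann cells were higher as well, with 5 of 5, 6 of 6 and 5 of 5 tested genes called, against 24.9% of all tested genes. Of these, C1qa and Dcn were not called in the authors' deposited table (adjusted p 0.098 and 0.064). The fibroblast markers summed to 90.3 and 92.5 RPKM in Het and 142 and 143 RPKM in Nf1-KO, and the Schwann cell markers to 14.8 and 15.2 against 34.3 and 32.9 RPKM. Endothelial markers were divided, with 2 called higher (against 24.9%) and 1 lower (against 25.4%) of 5 tested. Adipocyte, satellite cell and blood markers had 1 of 2, 1 of 2 and 0 of 1 tested genes called higher and 0 lower. The part of these cells in the values of the surrounding genes was not tested.

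**Figure D4:**
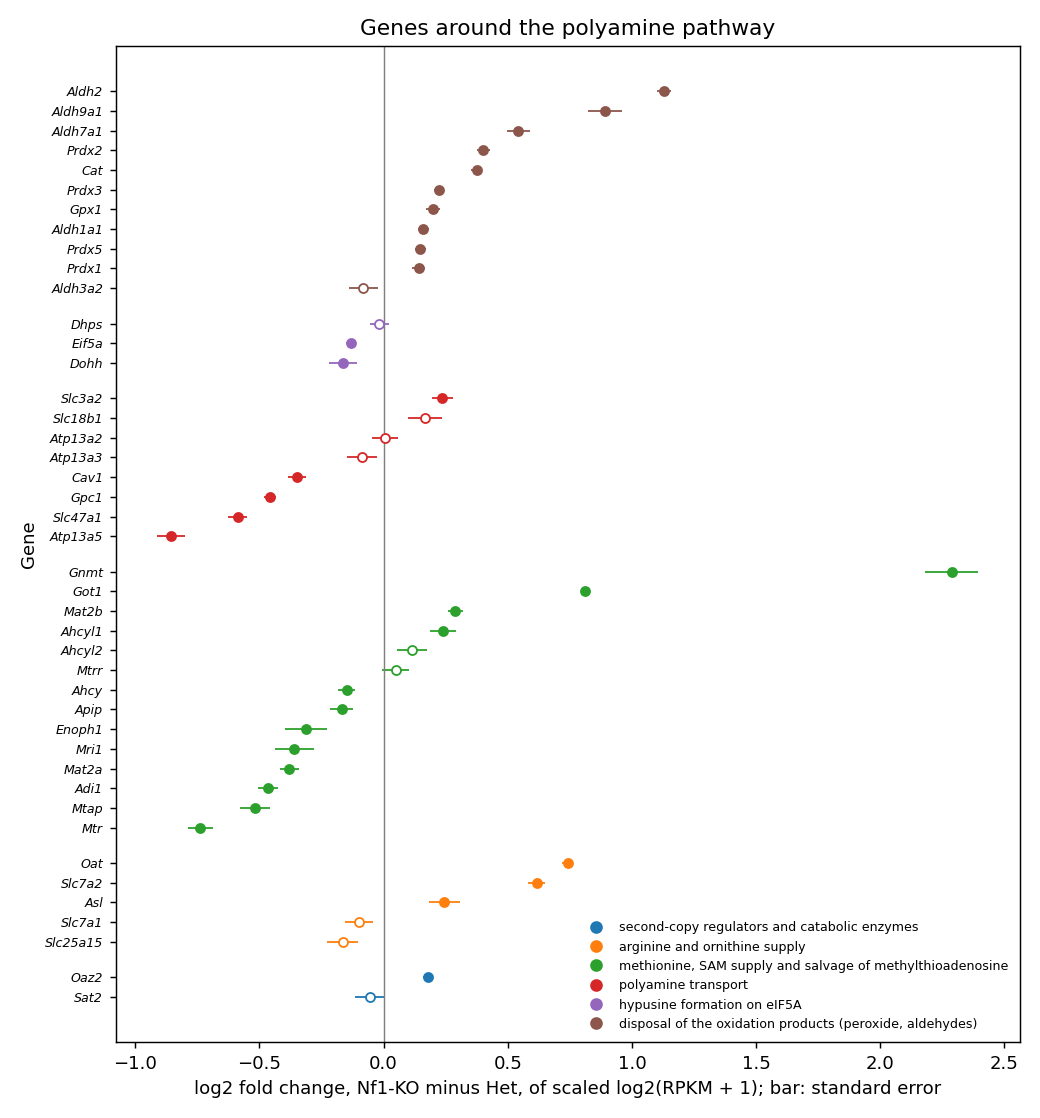
Log2 fold change of Nf1-KO minus Het on scaled log2(RPKM + 1), with standard errors, for the 43 tested genes of the 6 surrounding lists, filled where the limma adjusted p was under 0.05. Gnmt at 2.29 and Aldh2 at 1.13 lie highest and Atp13a5 at -0.86 lowest, and 10 of 11 disposal genes lie to the right.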

How the data were processed

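RNA of tibialis anterior was sequenced from 2 Het and 2 Nf1-KO libraries. The submitters' processing notes name STAR 2.4.2a, DESeq2 and the build mm9; counting, annotation and strandedness are not given in the sources used here. The authors deposited 1 value per gene and library, which was read as RPKM because the ratio of deposited mean counts to these values rose with transcript length (log-log slope 0.95 over 4534 genes). Per the file headers, the authors' comparison table holds a mean normalized count (a signal), a log2 fold change with its standard error, a test score and p-values before and after adjustment.

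The 33 rows named by a number (0.0952% of rows) were left out, and of rows with the same name the most abundant was used. Depth was estimated from the steps of low values in genes under 400 bases, so reads are approximate. Values were scaled by the mean log ratio after trimming (30% at each end by ratio, 5% by abundance) with factors of 0.969, 0.967, 1.03 and 1.03. Genes of at least 0.5 RPKM in 2 libraries were tested on log2(RPKM + 1) by limma 3.58.1 in R 4.3.3 (mean-variance trend, two-sided), with Benjamini-Hochberg adjustment over all tested genes. The fit was tested on simulated data. An exact permutation test of 2 against 2 libraries cannot go below 0.333. Same-numbered libraries did not deviate together (correlation 0.046 over 4827 genes), so no pairing was used. Replicates differed by more than sampling noise (chi-square per gene 3.96 in Het and 5.86 in Nf1-KO). Shared sequence was found with BLAST 2.17.0 in GENCODE M21 transcripts (at least 100 bases at 97% identity), and positions are those of GRCm38, not of mm9. Counting errors were computed from the authors' mean counts and cover counting only.

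All 10 members are described. Of the surrounding lists, the called genes with the largest rise and fall and those over 50 RPKM on average over the 4 libraries are named, with others named for completeness after their values were seen. The members, lists and tests were chosen with earlier results of these data known.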

Additional observations from a re-analysis of the deposited data

How the results depend on the processing

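Over 14 alternatives, Odc1, Sms and Azin1 stayed lower and called, with log2 fold changes from -1.37 to -1.22, -0.94 to -0.81 and -0.73 to -0.54. Smox ranged from -2.69 to -2.50. The 2 members called higher became 1 with no filter on low values and 1 with at least 1 RPKM in every library, where Paox was not tested, ran from 1 to 2 when each library was left out, and were 0 in the authors' deposited table; apart from the filters and fewer samples, the cause was not tested. Sat1 ranged from 0.27 to 0.36 and lost its call only in that table. Of the surrounding genes, 9 in place of 14 were called lower with values as deposited, where the median of all tested genes was 0.07. A replicate block gave 2593 higher and 2636 lower genes, and among the members no call changed (Paox adjusted p 0.036). Nf1 lost its call with that block (0.056), with no filter (0.074) and with values as deposited (0.094). In the authors' deposited table Nf1 was called lower (log2 fold change -0.38, adjusted p 0.0026). Depth limits the precision for Paox, which had 74.2 mean normalized counts in the authors' deposited table and a counting error of 0.17 on its log2 ratio of 0.49.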
